A study of Mus musculus with 6 samples.

Results

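The MHC class II pathway was followed through single-cell RNA libraries of CD8-enriched cells by 7 genes chosen by symbol: Cd74, H2-Aa, H2-Ab1, H2-Eb1, H2-DMa, H2-DMb1 and Ciita. These are 7 of the 32227 genes counted, and all 7 have counts in the files. MHC class II molecules display peptides from ingested proteins to CD4 T cells. Their chains assemble around the invariant chain, which is later cut away so that a peptide editor can load the groove. In the mouse, dendritic cells, B cells, macrophages and thymic epithelium are known for high levels, resting T cells are known for little or none, and interferon-γ induces the genes in many other cells through the transactivator CIITA.

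The study removed PD-1, an inhibitory receptor, from CD8 T cells of adult C57BL/6 mice and compared cells from thymus, spleen and tumors. Mice labelled Pdcd1 cKO carry floxed Pdcd1 alleles and E8I CD8-Cre, a Cre transgene under Cd8a control that acts in CD8 T cells after positive selection; mice labelled Pdcd1fl/fl carry the same floxed alleles without Cre. Thymic and splenic cells were enriched with a kit for CD8a+ T cells, and each of those libraries came from 1 mouse. Cells from B16-OVA melanoma, an ovalbumin-expressing line grown to day 12, were enriched with CD8 TIL beads after removal of dead cells, and each tumor library pooled 3 mice. With 1 library for each tissue and genotype there are no replicates, so no test between genotypes within a tissue was possible and every difference is a difference between 2 libraries. A genotype effect shared by the 3 tissues was not tested.

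Each count is a UMI, a tag that marks 1 captured RNA molecule, and levels are given as UMIs per 1000000 UMIs of the library or class (CPM). Brackets hold 95% intervals, exact Poisson for a CPM, exact conditional binomial for a log2 ratio and Clopper-Pearson for a share, and all of them cover counting error only. For a count of 0, the words "up to" give in place of an interval the level that 3 counts would have. After removal of cells with under 500 genes, under 1000 UMIs or over 20% mitochondrial UMIs, the library labelled Pdcd1fl/fl held 1067 thymus cells (6389966 UMIs), 1478 spleen cells (2220981 UMIs) and 456 tumor cells (9380835 UMIs). Its counterpart labelled Pdcd1 cKO held 2635 thymus cells (19143524 UMIs), 4928 spleen cells (8923997 UMIs) and 561 tumor cells (7924590 UMIs). The filter kept 21.3% of barcodes in the spleen library labelled Pdcd1fl/fl and at least 98.5% in each of the other 5. No cell barcode was shared between libraries apart from 2 between the spleen libraries.

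Pdcd1 RNA went against the labels in thymus, spleen and whole tumor libraries. Thymus libraries held 12 Pdcd1 UMIs (1.88 CPM) under the label Pdcd1fl/fl and 131 (6.84 CPM) under Pdcd1 cKO, and spleen libraries held 1 (0.450 CPM) and 104 (11.7 CPM). Tumor libraries held 717 (76.4 CPM) and 808 (102 CPM), and T-like cells within them ran with the labels, at 183 and 152 CPM. Which exons are floxed is not given in the sources used here, and a tag from the 3′ end outside the deleted part would not check the deletion. The study reports that loss of PD-1 was seen by flow cytometry and that NKG7 was higher without it. Nkg7, looked up for this reason after Pdcd1 values were seen, ran that way under the labels, at 249.6 and 325 CPM in thymus, at 1282 and 1810.4 CPM in spleen and at 1561 and 2637 CPM in T-like tumor cells. With Pdcd1 RNA as it is, genotypes are written as labels throughout, and every direction rests on them. T cell markers were detected in all 6 libraries, with 10 of 10 found in each and a summed level that was lowest in tumor labelled Pdcd1fl/fl (2489.9 CPM) and highest in spleen labelled Pdcd1 cKO (6626 CPM). Genes of immature thymocytes set the tissues apart, with 5 of 5 detected at 545 CPM (Dntt, 478) and 428 CPM (Dntt, 377) in thymus and 3 of 5 at 3.15 and 7.62 CPM in spleen, where Rag1 and Rag2 were at 0.

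Class II RNA was highest in tumor. The 7 genes summed to 60.6 CPM (54.7 to 66.9) and 80.2 CPM (76.2 to 84.3) in the thymus libraries labelled Pdcd1fl/fl and Pdcd1 cKO. Spleen gave 31.5 CPM (24.6 to 39.8) and 121 CPM (113 to 128) in the same order, and tumor gave 1395 CPM (1371 to 1419) and 2951 CPM (2913 to 2989). Tumor libraries thus stood above both lymphoid organs under either label, both thymus libraries lay between the spleen pair, and class II genes took 0.140% and 0.295% of all tumor UMIs. The makeup of the sum differed as well. H2-DMa, 1 chain of the peptide editor, made up 58.1% and 45.8% of class II UMIs in thymus and 88.6% and 34.7% in spleen, but 3.90% and 3.60% in tumor. Cd74, the invariant chain, made up 53.2% and 56.6% in tumor and 13.2% and 28.9% in thymus. In spleen it made up 5.71% and 51.6%, so the library labelled Pdcd1 cKO was close to tumor.

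**Figure D1:**
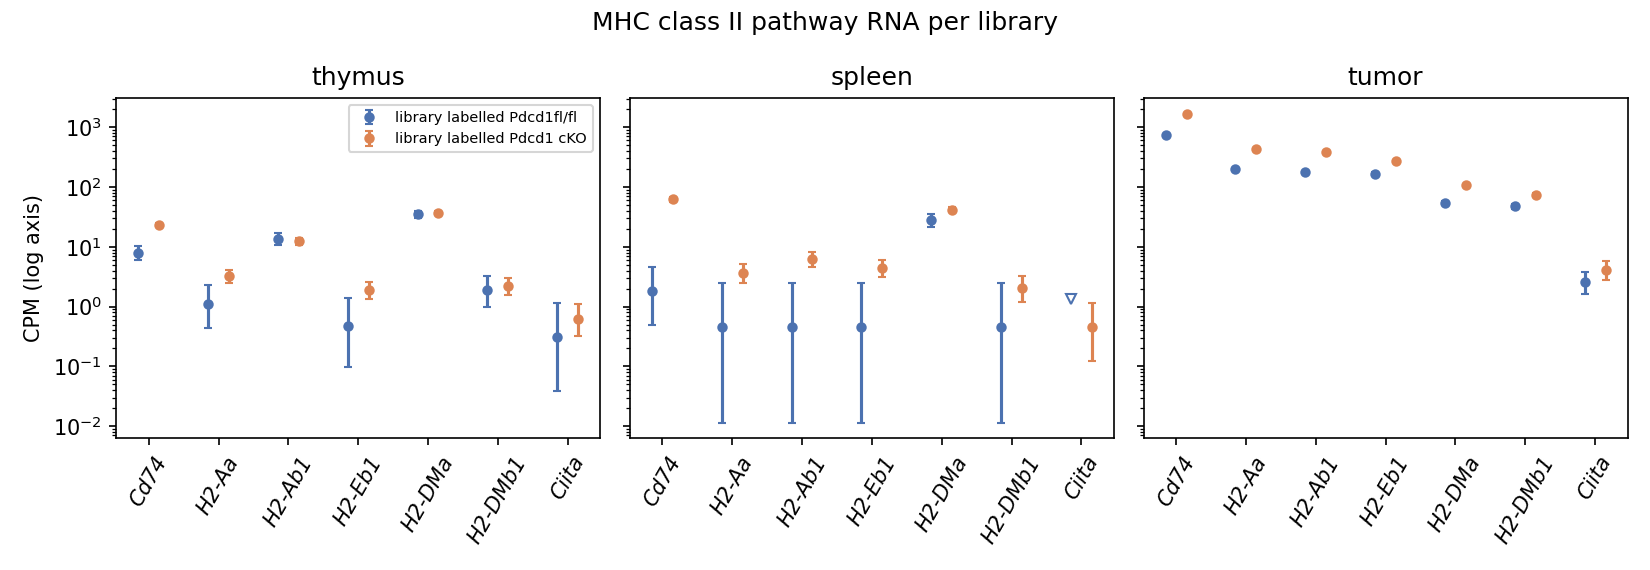
Level of the 7 genes in CPM (log axis) in the 6 libraries; points are libraries, bars are 95% Poisson intervals (smaller than the point where not seen), and the open triangle marks the level of 3 counts for Ciita at 0 UMIs. Cd74 leads in tumor at 742 and 1672 CPM, while H2-DMa leads in thymus at 35.2 and 36.7 CPM.

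In the thymus, Cd74 was the well-counted member that set the libraries apart. Cd74, which blocks the peptide groove during assembly, stood at 7.98 CPM (5.94 to 10.5) in the library labelled Pdcd1fl/fl and at 23.1 CPM (21.0 to 25.4) in that labelled Pdcd1 cKO, a log2 ratio of 1.54 (1.12 to 1.98). The H2-DM chain H2-DMa was level, at 35.2 CPM (30.8 to 40.1) and 36.7 CPM (34.1 to 39.5). H2-Ab1, the β chain of the I-A molecule, was level too, at 13.6 CPM (10.9 to 16.8) and 12.4 CPM (10.9 to 14.1). The other 4 members were scarce. H2-Aa, the I-A α chain, had 7 and 62 UMIs, a log2 ratio of 1.56 (0.44 to 2.94). H2-Eb1, the β chain of I-E, had 3 and 36 UMIs, a log2 ratio of 2.00 (0.34 to 4.35). H2-DMb1, the partner chain of H2-DMa, had 12 and 42 UMIs, and Ciita, the transactivator of the set, had 2 and 12; neither ratio was distinguishable from 0 at this depth.

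Summed over the 7 genes the thymus ratio was 0.40 (0.24 to 0.57), and without Cd74 it was 0.12 with an interval that holds 0 (−0.06 to 0.30). Of the 3 members with at least 100 UMIs over both libraries (Cd74, H2-Ab1 and H2-DMa), 1 (Cd74) was past 2-fold higher under the label Pdcd1 cKO and 0 were past 2-fold lower, where 3.63% of 10380 such genes were past 2-fold higher. Cd74 and H2-Ab1 reached 100 UMIs through the library labelled Pdcd1 cKO alone, which is the deeper. Cells with at least 10 class II UMIs, a level chosen after values were seen, numbered 10 under the label Pdcd1 cKO and 0 under Pdcd1fl/fl, and they carried 12.0% of the class II UMIs of their library. Of these 10, 8 had CD8 RNA and 2 had RNA of a B cell marker (Cd79a, Cd79b or Ms4a1). Without them Cd74 stood at 17.6 CPM (15.8 to 19.6) in the library labelled Pdcd1 cKO, still above the 7.98 CPM of the other, while the ratios of H2-Aa (1.11, −0.05 to 2.50) and H2-Eb1 (1.09, −0.68 to 3.49) had intervals that hold 0.

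Among marker lists of class II-rich lineages in thymus, that of B cells had the highest sum, through Ighm. Without Ighm it summed to less than the thymic epithelial list in both libraries. The macrophage list had 6 of 12 genes detected at a summed 13.0 CPM (most abundant Apoe, 6.26) under Pdcd1fl/fl and 7 of 12 at 14.2 CPM (Apoe, 3.97) under Pdcd1 cKO, with C1qa, C1qc, Cd14 and Ms4a7 at 0 in both. The dendritic list had 5 of 9 at 5.79 and 5.85 CPM, led by Zbtb46 (2.82 and 1.99), with Clec9a, Cd209a, Ccl22 and Siglech at 0 in both. B cell genes summed to 156 CPM (7 of 8; Ighm, 136; Ms4a1 at 0) and 109.8 CPM (8 of 8; Ighm, 92.6). Thymic epithelial genes summed to 21.6 CPM (6 of 8; Ccl25, 10.6; Krt5 and Prss16 at 0) and 27.5 CPM (8 of 8; Epcam, 14.9). Cells with Cd79a, Cd79b or Ms4a1 RNA, a split chosen after values were seen, numbered 81 (7.59%) and 132 (5.01%). They held 9.82% and 11.3% of the class II UMIs. Their class II level was 54.1 CPM (38.3 to 74.3) against 61.4 CPM (55.1 to 68.1) in the rest under Pdcd1fl/fl. Under Pdcd1 cKO it was 121 CPM (104 to 141) against 76.9 CPM (72.8 to 81.0). There the cells with B marker RNA held 27.4% of H2-Aa and 38.9% of H2-Eb1 UMIs, with Cd74 at 43.2 CPM (33.1 to 55.4). In the remaining cells Cd74 stood at 7.56 CPM (5.47 to 10.2) and 21.5 CPM (19.4 to 23.8). Shares from the other lineages and from free RNA were not tested.

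In the spleen the gap was wider and lay mostly in Cd74. Cd74 had 4 UMIs (1.80 CPM, 0.491 to 4.61) under the label Pdcd1fl/fl and 555 (62.2 CPM, 57.1 to 67.6) under Pdcd1 cKO, a 34.5-fold difference and a log2 ratio of 5.11 (3.75 to 6.99). H2-Ab1 had 1 UMI and 55, a log2 ratio of 3.77 (1.24 to 9.10). H2-Eb1 had 1 and 39, a log2 ratio of 3.28 (0.72 to 8.62), and H2-Aa 1 and 32, a log2 ratio of 2.99 (0.41 to 8.34). A single UMI on one side leaves these ratios loosely bounded. The editor chains were counted to unequal depth. H2-DMa was well counted in both, at 27.9 CPM (21.4 to 35.8) and 41.8 CPM (37.7 to 46.3), a log2 ratio of 0.58 (0.19 to 0.99). H2-DMb1 had 1 and 18 UMIs, a log2 ratio of 2.16 (−0.50 to 7.54), and Ciita had 0, which allows up to 1.35 CPM, and 4.

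The summed spleen ratio was 1.94 (1.59 to 2.31), and the median gene sat at 0.17 between these libraries, against −0.07 in thymus and −0.22 in tumor. Of the 2 members with at least 100 UMIs (Cd74 and H2-DMa), 1 (Cd74) was past 2-fold higher under Pdcd1 cKO, against 5.07% of 7843 genes, and Cd74 reached 100 UMIs through that library alone. The sum moved most without Cd74 (0.97, 0.60 to 1.37), without cells holding any marker UMI of another lineage (1.24, 0.80 to 1.70) and with stricter cell filters (2.55, 1.79 to 3.43).

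B lineage RNA moved with Cd74 in the spleen. The B list had 7 of 8 genes detected at 199 CPM (most abundant Ighm, 94.1; Ms4a1 at 0) under the label Pdcd1fl/fl and 8 of 8 at 2065 CPM (Igkc, 1517) under Pdcd1 cKO. Splitting the latter library by Cd79a, Cd79b and Ms4a1 RNA, the same split, put 41.4% of its Cd74 UMIs in 109 of 4928 cells (2.21%), where the library labelled Pdcd1fl/fl had 19 of 1478 such cells (1.29%) with 0 Cd74 UMIs. Cd74 stood at 851 CPM (745 to 968) in those 109 cells and at 37.6 CPM (33.6 to 41.9) in the remaining 4819, so the cells without B marker RNA were still above the 1.80 CPM of the library labelled Pdcd1fl/fl. H2-DMa was spread otherwise, at 55.5 CPM (31.1 to 91.5) in the 109 cells, which held 4.02% of its UMIs. Cells with at least 10 class II UMIs numbered 10 there and 0 under Pdcd1fl/fl, 9 of them with a B marker or at least 10 immunoglobulin UMIs (Igkc and Ighm), and they held 27.1% of the class II UMIs. Without them the ratio of Cd74 was 4.31 (2.94 to 6.20) and that of H2-Ab1 3.04 (0.47 to 8.39), while those of H2-Aa (2.09, −0.59 to 7.47) and H2-Eb1 (2.46, −0.17 to 7.83) had intervals that hold 0. Macrophage genes summed to 10.8 CPM (6 of 12; Fcgr3, 3.60) and 30.6 CPM (9 of 12; Apoe, 11.9), with C1qa, C1qc and Ms4a7 at 0 in both. Dendritic genes summed to 9.01 CPM (3 of 9; Zbtb46, 3.60) and 7.62 CPM (4 of 9; Itgax, 3.36), with Xcr1, Clec9a, Cd209a, Ccl22 and Siglech at 0 in both. Granulocyte progenitor genes summed to 2.25 CPM (2 of 5; Prtn3, 1.80) and 77.4 CPM (5 of 5; Mpo, 27.6). The part of free RNA from B cells in the 37.6 CPM was not tested.

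H2-DMa was the member spread most widely over thymus and spleen cells. In cells thinned to 1000 UMIs each, which left out no cell, an H2-DMa UMI was seen in 3.66% and 4.06% of thymus cells and in 2.37% and 3.84% of spleen cells under Pdcd1fl/fl and Pdcd1 cKO (16.5%, 20.4%, 3.38% and 6.49% before thinning; median depths 4361, 5417, 1320.5 and 1615 UMIs). Cd74 was seen in 1.12% and 1.82% of thinned thymus cells and in 0.203% and 3.15% of thinned spleen cells. No class of another lineage was named in these libraries, so no share from cells lacking the gene stands beside these. Counts of the paired chain H2-DMb1 did not keep step: thymus held 225 and 703 H2-DMa UMIs beside 12 and 42 of H2-DMb1, while tumor held 511 and 842 beside 446 and 578.

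Counts of H2-DMa carry a limit. Its annotated span overlaps Brd2 and Gm50335 on the opposite strand and Gm50336 on the same strand, and whether counting used the strand is not given in the sources used here, so its UMIs and theirs may be mixed. Brd2, looked up after values were seen, was abundant, at 126 and 141 CPM in thymus and at 140.03 and 186 CPM in spleen. In the melanoma-like cells described below it differed the other way, with 92.3 and 64.3 CPM where H2-DMa had 47.1 and 227 CPM, while in T-like cells both were level (Brd2 39.6 and 38.0 CPM) and in spleen both were higher under Pdcd1 cKO. H2-Aa and H2-Eb1 overlap each other on opposite strands, and Ciita overlaps Dexi on the opposite strand.

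Thymus cells were then divided by RNA for CD8 (Cd8a or Cd8b1) and for Ccr7, a chemokine receptor that rises as thymocytes mature, each as 0 or at least 1 UMI. Cells with both numbered 296 under the label Pdcd1fl/fl and 1092 under Pdcd1 cKO, CD8 alone 293 and 661, Ccr7 alone 117 and 194, and neither 361 and 688. Class II RNA was highest in the cells with both. It stood there at 80.3 CPM (67.7 to 94.7) and 115 CPM (107 to 123), against 58.8 CPM (48.4 to 70.8) and 46.3 CPM (40.7 to 52.4) in cells with CD8 RNA alone. Within a library the log2 ratio of the former over the latter was 0.45 (0.08 to 0.82) and 1.31 (1.10 to 1.52). Under Pdcd1fl/fl it was 0.30 (−0.10 to 0.71) without Cd74 and 0.55 (−0.15 to 1.27) without cells holding a marker UMI of another lineage, and both intervals hold 0.

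Cd74 and H2-DMa were the members higher in the cells with both. Cd74 stood at 16.4 CPM (10.99 to 23.6) against 6.89 CPM (3.67 to 11.8) under Pdcd1fl/fl, and at 44.6 CPM (39.9 to 49.7) against 7.81 CPM (5.63 to 10.6) under Pdcd1 cKO, log2 ratios of 1.25 (0.26 to 2.32) and 2.51 (2.05 to 3.01). For H2-DMa the levels were 54.3 CPM (44.0 to 66.3) against 28.1 CPM (21.0 to 36.7), and 57.4 CPM (52.0 to 63.2) against 19.7 CPM (16.1 to 23.8), log2 ratios of 0.95 (0.45 to 1.46) and 1.54 (1.23 to 1.86). Brd2, which overlaps it, did not follow, at 127 against 129.8 CPM and at 121 against 142 CPM. Gm50335 was far scarcer, at 12.4 against 6.89 CPM (22 and 13 UMIs), the way of H2-DMa, and at 3.84 against 3.53 CPM. H2-Ab1 went the other way, with 7.92 against 15.9 CPM and 8.10 against 11.3 CPM, log2 ratios of −1.01 (−2.03 to −0.05) and −0.49 (−1.03 to 0.05). H2-DMb1 had 1 against 6 UMIs, a log2 ratio of −2.49 with an interval that holds 0 (−8.01 to 0.55), and 4 against 14 UMIs, a log2 ratio of −2.25 (−4.31 to −0.57).

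The remaining members were near the limit of counting in every thymus class. H2-Aa had 0 UMIs (up to 1.70 CPM) and 15 UMIs in cells with CD8 and Ccr7 RNA, and its highest count was 26, in cells with neither under Pdcd1 cKO. H2-Eb1 had 0 and 10 UMIs in cells with both, and again its highest count, 19, came from cells with neither. Ciita had at most 4 UMIs in any class. Among CD8-negative cells, those with Ccr7 RNA under Pdcd1fl/fl had no Cd74 UMI, which allows up to 4.16 CPM, and those under Pdcd1 cKO had 9.38 CPM (5.25 to 15.5). H2-Ab1 in CD8-negative cells without Ccr7 RNA stood at 15.9 and 17.4 CPM. Median depths of the 4 classes ran from 4014 to 5168 UMIs under Pdcd1fl/fl and from 4996 to 5671.5 under Pdcd1 cKO. Each cell was also thinned to 1000 UMIs and the classes drawn again from the thinned counts, which changes depth and class membership together. The class II ratio of CD8 cells with over those without Ccr7 RNA was then 1.12 (−0.11 to 2.31) under Pdcd1fl/fl, from 12 and 15 UMIs.

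**Figure D2:**
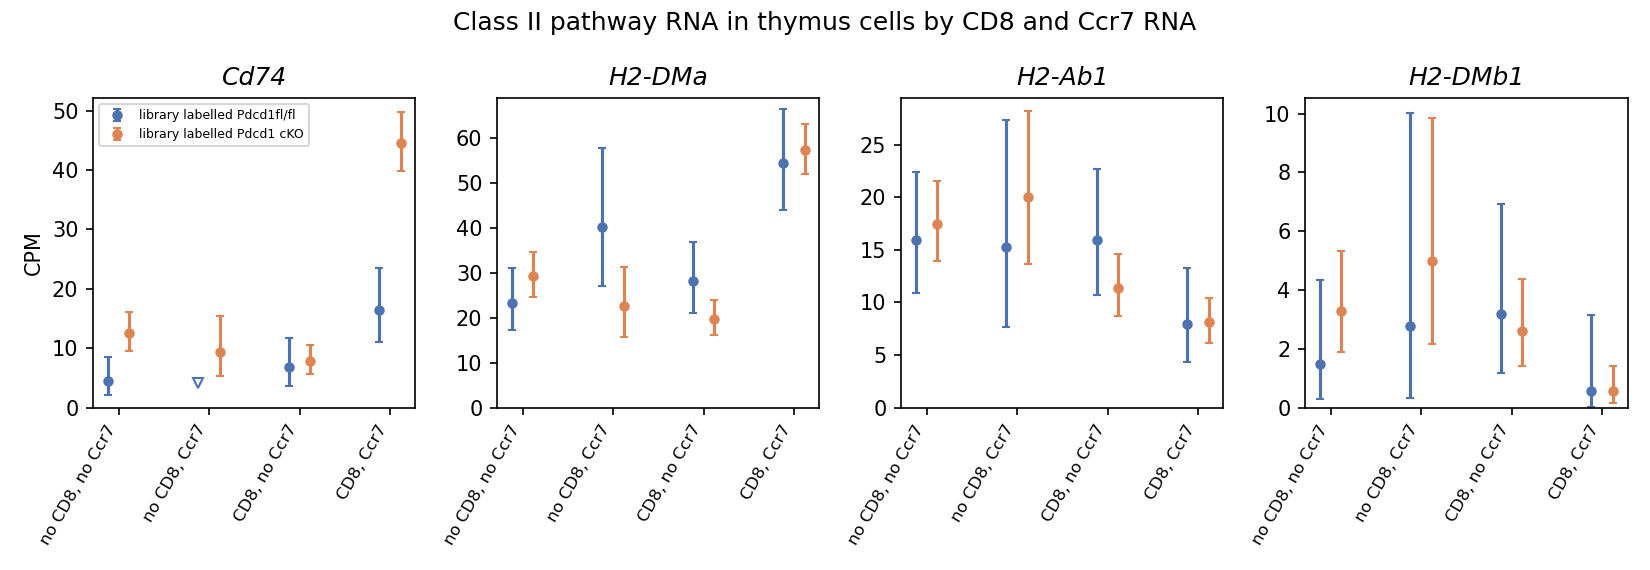
Level in CPM of 4 class II pathway genes in thymus cells grouped by CD8 and Ccr7 RNA (0 or at least 1 UMI), by library; points are the summed level of a class, bars are 95% Poisson intervals and the open triangle is the level of 3 counts for 0 UMIs. Cd74 is highest in cells with CD8 and Ccr7 RNA (16.4 and 44.6 CPM), as is H2-DMa (54.3 and 57.4 CPM), while H2-Ab1 is lowest there (7.92 and 8.10 CPM).

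In the tumor the 6 members other than Ciita were more abundant under the label Pdcd1 cKO, by amounts close to 2-fold for most. Cd74 stood at 742 and 1672 CPM, a log2 ratio of 1.17 (1.13 to 1.21). H2-Aa stood at 202 and 441 CPM (1.13, 1.05 to 1.21), and H2-Ab1 at 179 and 379.96 CPM (1.08, 1.00 to 1.17). H2-Eb1 differed less, with 168 and 276 CPM (0.72, 0.62 to 0.81). Of the editor chains, H2-DMa had 54.5 and 106 CPM (0.96, 0.80 to 1.13) and H2-DMb1 had 47.5 and 72.9 CPM (0.62, 0.44 to 0.80). Ciita had 24 and 32 UMIs (0.66, −0.15 to 1.49), a difference not detectable at this depth. The sum differed by 1.08 (1.05 to 1.11), and 3 of 6 members with at least 100 UMIs, all but Ciita, (Cd74, H2-Aa and H2-Ab1) were past 2-fold higher, beside 3.94% of 9035 genes. With every cell thinned to 1000 UMIs, so that deep cells weigh no more than shallow ones, the ratio was 0.24 (0.12 to 0.36). The 97 and 89 cells holding at least 10 class II UMIs had 93.6% and 95.01% of all of them, so the rest is few molecules. Without these cells H2-DMb1 turned, with 36 and 26 UMIs and a ratio of −0.30 whose interval holds 0 (−1.09 to 0.46). Cd74 was then at 0.61 (0.44 to 0.79), H2-Aa at 0.99 (0.56 to 1.43), H2-Ab1 at 0.97 (0.59 to 1.35), H2-Eb1 at 0.78 (0.35 to 1.22) and H2-DMa at 0.40 (0.02 to 0.79).

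These libraries hold several kinds of cell, and class II RNA depended on which. Clusters in which at least 3 markers of a lineage were raised gave 287 and 469 T-like cells, 27 and 34 macrophage-like cells and 142 and 58 melanoma-like cells under Pdcd1fl/fl and Pdcd1 cKO. Macrophage-like cells carried 25565.5 CPM (24956 to 26186) and 26218 CPM (25704 to 26740) of class II RNA. Melanoma-like cells carried 1092 CPM (1064 to 1121) and 5226 CPM (5133 to 5321), and T-like cells 168 CPM (155 to 181) and 296 CPM (281 to 311). The macrophage-like level was above the T-like level by a log2 ratio of 7.25 (7.14 to 7.37) and 6.47 (6.39 to 6.55), and by 5.95 and 5.70 where classes were set by each cell's own marker UMIs. After thinning to 1000 UMIs a class II UMI was seen in 16.4% and 20.9% of T-like cells, 42.3% and 77.6% of melanoma-like cells and 92.6% and 97.1% of macrophage-like cells (79.1%, 85.5%, 94.4%, 100%, 100% and 100% before it). Median depths were 11027 and 9107 UMIs in T-like, 31889 and 35962.5 in melanoma-like and 8831 and 7047.5 in macrophage-like cells.

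**Figure D3:**
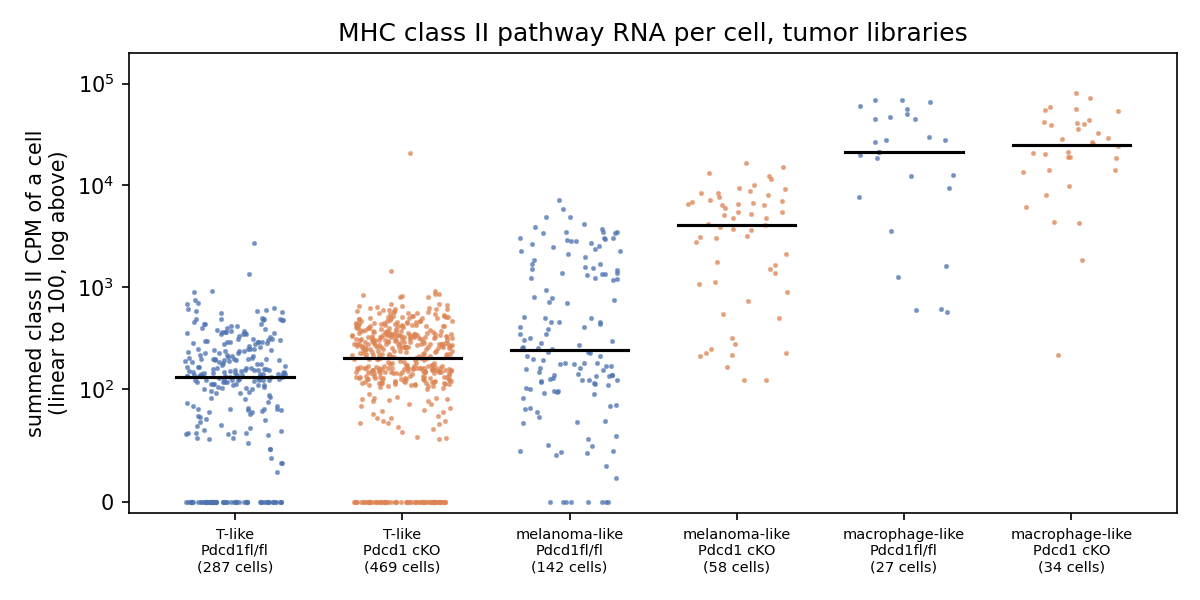
Summed class II CPM of single cells in the tumor libraries (axis linear to 100 and logarithmic above), by class and library; dots are cells and lines are medians over cells. Melanoma-like cells span from 0 to 7159 CPM under Pdcd1fl/fl and from 122 to 16629.7 CPM under Pdcd1 cKO, with medians of 239.7 and 4114 CPM.

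Melanoma-like cells showed the widest gap between labels of the 3 classes, and it ran through the 7 members. Cd74 stood at 625 CPM (604 to 647) and 3140.35 CPM (3068 to 3214), a log2 ratio of 2.33 (2.27 to 2.39). The antigen-binding chains differed alike, H2-Aa with 169.7 and 788 CPM (2.22, 2.10 to 2.33), H2-Ab1 with 101 and 499.6 CPM (2.31, 2.16 to 2.46) and H2-Eb1 with 89.3 and 396 CPM (2.15, 1.99 to 2.31). H2-DMa, in the editor, had 47.1 and 227 CPM (2.27, 2.05 to 2.49), and H2-DMb1 differed less, with 56.2 and 166 CPM (1.56, 1.34 to 1.79). Ciita had 19 and 21 UMIs, or 3.59 and 9.19 CPM (1.35, 0.39 to 2.33). All 6 members with at least 100 UMIs were past 2-fold higher, beside 2.19% of 6309 genes, and the median gene sat at −0.12, against 0.08 in T-like and −0.04 in macrophage-like cells.

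The shift was seen over cells and not only in the sum. The median melanoma-like cell had 8 class II UMIs under Pdcd1fl/fl and 109 under Pdcd1 cKO. Cells above 1000 CPM, a level chosen after values were seen, numbered 44 of 142 (31.0%, 23.5 to 39.3) and 44 of 58 (75.9%, 62.8 to 86.1), with 4 and 3 cells between 800 and 1200 CPM. Other lineages were not alike under the labels in this class. Fibroblast genes summed to 292 CPM (6 of 6; Col1a2, 119) under Pdcd1fl/fl and 3.94 CPM (3 of 6; Pdgfrb, 2.19; Col1a1, Dcn and Pdgfra at 0) under Pdcd1 cKO, and T cell genes to 161 CPM (10 of 10; Trbc2, 44.5) and 294 CPM (10 of 10; Trbc2, 71.3). Their part in the class II difference was not tested. Cells above 1000 CPM of class II were of similar depth to the rest, with medians of 33903.5 against 30810.5 UMIs and 38067 against 33206 UMIs. Both groups of cells had melanoma RNA, Pmel at 4961 CPM above and 4547 CPM at or under the level in the library labelled Pdcd1fl/fl, and at 6270.0 and 3496.5 CPM in that labelled Pdcd1 cKO.

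Macrophage RNA in melanoma-like cells was low, though higher under Pdcd1 cKO. Their macrophage list had 12 of 12 genes detected at 869 and 1211 CPM, of which Apoe made 837 and 1029. Lyz2 stood at 6.81 and 31.9 CPM, 0.180% and 0.786% of its level in macrophage-like cells, and C1qa at 3.22 and 36.3 CPM, 0.147% and 1.77% of it. Class II RNA in melanoma-like cells was 4.27% and 19.9% of the macrophage-like level, and H2-DMa reached 7.69% and 46.5%. Proportions differed too, with H2-Ab1 at 9.23% and 9.56% of class II UMIs in melanoma-like and 16.3% and 16.6% in macrophage-like cells. Cells above 1000 CPM had a median of 1 UMI over Lyz2, C1qa, C1qb, C1qc, Csf1r and Fcgr3 under either label. One cell labelled Pdcd1 cKO had 275 such UMIs and 767 class II UMIs, and without it the class ratio was 2.20 (2.15 to 2.25) in place of 2.26 (2.21 to 2.30). That cell held most UMIs of these macrophage genes among melanoma-like cells labelled Pdcd1 cKO, so their summed level there leans on it. Levels of single macrophage genes without it were not computed.

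Levels of 12 genes of class I presentation and interferon response, chosen after values were seen, were compared in melanoma-like cells. All 12 stood higher in cells above 1000 CPM of class II than in the rest under either label. In cells above it 9 were higher and 3 (Cxcl10, Cxcl9 and Nlrc5) lower under Pdcd1 cKO. In cells at or under it 8 were higher and 4 (Cxcl10, H2-D1, H2-K1 and Nlrc5) lower. Nlrc5 and Cxcl9 had only 2 and 4 UMIs in the 14 cells at or under it labelled Pdcd1 cKO. No share over all genes was computed for these splits, so the counts are a description only. The gap between cells was narrow for some, with Irf1 at 35.3 and 24.9 CPM and B2m at 9581 and 6153 CPM under Pdcd1fl/fl. Cxcl10 stood at 1200 and 855 CPM in the cells above it under Pdcd1fl/fl and Pdcd1 cKO. Psmb8, an immunoproteasome subunit, stood at 268 CPM in melanoma-like cells above and 46.9 CPM in those at or under 1000 CPM of class II under Pdcd1fl/fl, and at 527 and 81.5 CPM under Pdcd1 cKO. Gbp2, an interferon-induced GTPase, stood at 179.6 and 30.2 CPM and at 324 and 123 CPM.

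Macrophage-like cells, by contrast, carried like amounts of class II RNA under both labels. Cd74 stood at 12619.9 and 13910 CPM (0.14, 0.08 to 0.20) and H2-Aa at 3605 and 4048 CPM (0.17, 0.05 to 0.29). H2-Ab1 was level, at 4157 and 4339.6 CPM (0.06, −0.05 to 0.17). H2-Eb1 was lower under Pdcd1 cKO, at 4046 and 2968 CPM (−0.45, −0.57 to −0.32), as was H2-DMa, at 613 and 488 CPM (−0.33, −0.64 to −0.01). The H2-DMa difference rests on 1 cell labelled Pdcd1 cKO with 74582 UMIs, 5 of them H2-DMa. Without that cell, a setting chosen after values were seen, the ratio was −0.05 (−0.37 to 0.27), while that of H2-Eb1 was −0.39 (−0.51 to −0.26). That of H2-Aa was then 0.12 (−0.00 to 0.25), an interval that just holds 0, and that of the sum 0.06 (0.01 to 0.11). H2-DMb1 stood at 521 and 454 CPM (−0.20, −0.53 to 0.14), and Ciita had 1 and 4 UMIs. The sum differed by 0.04 (−0.01 to 0.08), with the other sign without Cd74 and with totals that leave out mitochondrial, ribosomal protein and Malat1 counts, and 0 of 6 members with at least 100 UMIs were past 2-fold higher, beside 7.18% of 905 genes. With 27 and 34 cells, single cells weighed heavily: the highest held 621 and 1826 of 6673 and 9884 class II UMIs.

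T-like cells held little class II RNA, with a larger share of H2-DMa in it than in macrophage-like cells. Cd74 stood at 93.6 and 157 CPM (0.74, 0.56 to 0.93), H2-Ab1 at 16.7 and 44.3 CPM (1.41, 1.00 to 1.83), H2-Eb1 at 12.3 and 30.4 CPM (1.31, 0.83 to 1.81) and H2-Aa at 14.1 and 31.4 CPM (1.15, 0.70 to 1.63). H2-DMa was level at 26.6 and 26.4 CPM (−0.01, −0.39 to 0.37). H2-DMb1 had 13 and 27 UMIs, and Ciita had 4 and 7. Relative to macrophage-like cells, T-like cells had 0.656% and 1.13% of the summed class II level, 0.200% and 0.435% of Lyz2 and 0.166% and 0.316% of C1qa, but 4.34% and 5.41% of H2-DMa. H2-DMa was 15.9% (13.1 to 18.9) and 8.93% (7.56 to 10.5) of class II UMIs in T-like cells and 2.40% (2.04 to 2.79) and 1.86% (1.60 to 2.15) in macrophage-like cells. Under Pdcd1 cKO other shares lay closer, with Cd74 at 53.0% in T-like and 53.1% in macrophage-like cells. There H2-Ab1 was at 15.0% and 16.6%, and H2-Aa at 10.6% and 15.4%. Under Pdcd1fl/fl Cd74 was at 55.8% and 49.4%, H2-Ab1 at 9.95% and 16.3%, and H2-Aa at 8.40% and 14.1%. The macrophage list in T-like cells had 11 of 12 genes at 51.1 CPM (Apoe, 20.6; Csf1r at 0) and 12 of 12 at 75.3 CPM (Lyz2, 17.7). B cell genes there summed to 93.1 CPM (8 of 8; Ighm, 46.9) and 234 CPM (7 of 8; Ighm, 155; Ms4a1 at 0). The latter sum leans on 1 cell with 603 Ighm UMIs, described next, and was not computed without it.

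The T-like ratio, 0.82 (0.68 to 0.95), with 3 of 5 members of at least 100 UMIs (H2-Aa, H2-Ab1 and H2-Eb1, not Cd74 and H2-DMa) past 2-fold higher beside 4.18% of 4999 genes, leaned on few cells. H2-Aa, H2-Ab1 and H2-Eb1 each reached 100 UMIs through the library labelled Pdcd1 cKO alone. One cell labelled Pdcd1 cKO held 355 class II UMIs, the next 19, and the same cell held 603 Ighm, 23 Igkc and 3 Cd79a UMIs with 0 of Cd3e and Cd8a. It lay in cluster 1, which has Ighm among its 10 leading genes. Ighm in that cluster stood at 630 CPM under Pdcd1 cKO with the cell and 53.5 CPM without it, and at 42.5 CPM under Pdcd1fl/fl. Clusters 1 and 4 held most T-like cells under Pdcd1fl/fl and clusters 0 and 3 most under Pdcd1 cKO, so clusters are also given by number. Class II RNA was 94.5 and 201 CPM in cluster 0 and 140.2 and 266 CPM in cluster 3. It was 223 and 257 CPM in cluster 4 and 323 and 442 CPM in cluster 6. Some of these rest on few UMIs. Under Pdcd1fl/fl cluster 0 had 13 in 12 cells and cluster 3 had 21 in 17 cells. Cluster 6 had 34 and 38 in 6 and 10 cells. Cluster 1 had 148 and 585 CPM, or 249 CPM under Pdcd1 cKO without that cell. Intervals of the pair overlapped in clusters 4 and 6. Without the cell the class ratio was 0.45 (0.31 to 0.59). Without clusters 1 and 6, which were named only against cells of other lineages, it was 0.16 (−0.05 to 0.37). That setting kept 126 of 287 cells under Pdcd1fl/fl and 398 of 469 under Pdcd1 cKO. It thus also changed the mix of clusters, and each cluster by itself stood higher under Pdcd1 cKO. Without the cell no member was past 2-fold, with H2-Aa at 0.79 (0.32 to 1.28), H2-Ab1 at 0.99 (0.57 to 1.43) and H2-Eb1 at 0.86 (0.36 to 1.38).

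Other genes of the pathway with at least 20 UMIs had a median log2 ratio between the labels of 0.08 in thymus, 0.21 in spleen and −0.13 in tumor. Members were summarised at another threshold, at least 100 UMIs, with 0.06, 2.85 and 1.02 for 3, 2 and 6 of them. The medians are therefore not of 1 kind. In thymus that threshold leaves out H2-Aa and H2-Eb1, whose ratios were higher, and the spleen value is the midpoint of Cd74 and H2-DMa alone. Of the 22 other genes listed, 21 were in the files, and those with at least 20 UMIs numbered 20 in thymus, 18 in spleen and 21 in tumor. In thymus 3 of 20 were past 2-fold higher under Pdcd1 cKO and 0 lower, beside 8.75% and 5.33% of the 14381 genes with at least 20 UMIs. They were H2-DMb2 (0.939 and 1.93 CPM, ratio 1.04, −0.22 to 2.58), Rfx5, a factor of the class II promoter (2.50 and 5.12 CPM, ratio 1.03, 0.26 to 1.89), and Cd44, a partner of Cd74 at the surface (11.3 and 24.0 CPM, ratio 1.09, 0.73 to 1.47). In spleen 1 of 18 was higher, Lgmn with 2 and 19 UMIs (1.24, −0.81 to 4.39), and 0 were lower, beside 9.42% and 2.83% of 12272 genes. In tumor 1 of 21 was higher and 1 lower, beside 6.78% and 11% of 14087 genes. Ctss, the protease that trims the invariant chain, was higher (79.6 and 284 CPM, ratio 1.83, 1.71 to 1.96) and Cd83, which holds class II at the surface, was lower (8.63 and 3.03 CPM, ratio −1.51, −2.23 to −0.84). Intervals of H2-DMb2 in thymus and Lgmn in spleen hold 0, and H2-DMb2 and Rfx5 in thymus reached 20 UMIs through the library labelled Pdcd1 cKO alone.

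By tumor class the same genes split. In melanoma-like cells 3 of 18 were higher and 1 lower, beside 3.59% and 8.63% of 11741 genes. Ctss (10.2 and 48.1 CPM, ratio 2.24, 1.75 to 2.73), H2-Eb2 (1.51 and 8.31 CPM, ratio 2.46, 1.20 to 3.86) and H2-DMb2 (3.78 and 8.31 CPM, ratio 1.14, 0.15 to 2.12) were higher there, and Nfya was lower (12.3 and 3.94 CPM, ratio −1.64, −2.83 to −0.63). In macrophage-like cells 1 of 10 was higher and 3 were lower, beside 8.97% and 10% of 3589 genes. Ctss was higher there (1785 and 4822 CPM, ratio 1.43, 1.29 to 1.58), and H2-DMb2 (169 and 29.2 CPM, ratio −2.53, −3.63 to −1.55), Cd83 (169 and 34.5 CPM, ratio −2.29, −3.31 to −1.37) and Cd44 (563 and 265 CPM, ratio −1.09, −1.47 to −0.71) were lower. In T-like cells 0 of 16 were higher and 2 lower, beside 9.62% and 4.28% of 10719 genes, H2-Oa (8.35 and 2.47 CPM, ratio −1.76, −2.81 to −0.79) and Cd83 (8.87 and 1.90 CPM, ratio −2.22, −3.40 to −1.17). Of these, Nfya and H2-DMb2 in melanoma-like cells, H2-DMb2 and Cd83 in macrophage-like cells and H2-Oa and Cd83 in T-like cells reached 20 UMIs through the library labelled Pdcd1fl/fl alone. H2-Oa and H2-Ob encode the DO molecule, which restrains the editor, and spleen held 10.8 and 12.6 CPM of the former and 19.8 and 18.8 CPM of the latter. In thymus CD8 cells with Ccr7 RNA, against those without, 2 of 14 of these genes with at least 20 UMIs were past 2-fold higher and 0 lower under Pdcd1fl/fl, beside 6.71% and 3.33% of 9578 genes, and 3 of 19 higher and 1 lower under Pdcd1 cKO, beside 4.67% and 8.56% of 12438 genes, a count made after values were seen. H2-Oa was higher, at 12.4 against 4.24 CPM under Pdcd1fl/fl and 17.7 against 4.46 CPM under Pdcd1 cKO, log2 ratios of 1.55 (0.33 to 2.93) and 1.99 (1.35 to 2.68). Ctss was too, at 66.2 against 28.1 CPM (1.24, 0.76 to 1.73) and 124 against 45.0 CPM (1.46, 1.25 to 1.67). Under Pdcd1 cKO Lgmn was higher with 18 and 6 UMIs (1.15, −0.25 to 2.77), an interval that holds 0, and Marchf1 was lower (−1.11, −1.69 to −0.54). H2-Oa under Pdcd1fl/fl, with 22 and 8 UMIs, reached 20 UMIs through the cells with Ccr7 RNA alone.

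The members lie on 3 chromosomes of build GRCm39. Cd74 is at chr18:60936899-60945731 (plus strand) and Ciita at chr16:10297923-10347694 (plus). The other 5 lie within the MHC: H2-DMa at chr17:34338515-34358958 (plus), H2-DMb1 at chr17:34372046-34379204 (plus), H2-Ab1 at chr17:34476663-34488393 (plus), H2-Aa at chr17:34493404-34506798 (minus) and H2-Eb1 at chr17:34504236-34535648 (plus).

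Over the 16 groups made of 4 thymus classes, spleen and 3 tumor classes in each library, the order of summed class II levels ran from spleen labelled Pdcd1fl/fl, at 31.5 CPM, to macrophage-like cells labelled Pdcd1 cKO, at 26218 CPM. Intervals of neighbours overlapped from that lowest group up to thymus cells with CD8 and Ccr7 RNA labelled Pdcd1fl/fl. They overlapped again between that class labelled Pdcd1 cKO (115 CPM) and spleen labelled Pdcd1 cKO (121 CPM), and between the macrophage-like pair. All other neighbours in the order had separate intervals. Genes whose log2(CPM + 1) was most like the summed class II level over these groups, out of 12906, were Cxcl9, Ctsb and Cd300a (Pearson r 0.98 each), then Hilpda, Mir22hg, Asah1, Naa80, Hmox1, C1qb and Gabarap (0.97 each). All 10 were highest in a macrophage-like group, and groups of a library share its depth and its free RNA. Cxcl9, an interferon-γ-induced chemokine, had 0 UMIs in all thymus and spleen groups, 27.6 and 44.6 CPM in melanoma-like cells and 146 and 374 CPM in macrophage-like cells. Among the members r ran from 0.92 for Ciita and 0.93 for H2-DMa to 0.98 for H2-Eb1 and H2-Aa.

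Class II genes are known for a shared promoter layout, an X box followed by a Y box, and upstream sequences of 4 members are shown as a description, with no link to the differences above tested. RefSeq promoters (build GRCm38.p6) were searched over 250 bases before the start on both strands for ATTGG, the core of the Y box, and AGNAAC, a part of the X box. Of 32851 promoters 33.8% held ATTGG, 42.3% held AGNAAC, and 1.42% held AGNAAC followed on the same strand by ATTGG with 10 to 40 bases between. Of 11 class II genes looked up 8 had entries, H2-Ab1 and Ciita having none among the members looked up, which leave out Cd74, and 5 genes had the pair: H2-Eb1, H2-DMb1, H2-Eb2, H2-Oa and H2-Ob. Each line gives bases 120 to 31 before the start, 5′ to 3′ on the strand of the gene, with matches to either motif or its reverse complement in capitals. They are H2-Eb1 at chr17:34305747-34305836 (plus), H2-DMb1 at chr17:34153071-34153160 (plus), H2-Aa at chr17:34287854-34287943 (minus) and the first of 2 entries for H2-DMa, at chr17:34122712-34122801 (plus).
H2-Eb1: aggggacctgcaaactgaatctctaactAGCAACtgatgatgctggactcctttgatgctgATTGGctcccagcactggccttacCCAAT
H2-DMb1: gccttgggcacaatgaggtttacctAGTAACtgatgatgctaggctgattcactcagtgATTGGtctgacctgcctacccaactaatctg
H2-Aa: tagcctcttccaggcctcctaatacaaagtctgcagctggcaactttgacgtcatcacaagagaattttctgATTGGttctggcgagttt
H2-DMa: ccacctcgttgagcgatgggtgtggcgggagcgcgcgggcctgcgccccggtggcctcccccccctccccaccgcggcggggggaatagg

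H2-Eb1 and H2-DMb1 held both motifs, with 27 and 28 bases between them, and H2-Aa held ATTGG alone. H2-DMa held neither motif in its first entry, which had 27 CG dinucleotides in the 250 bases, more than 91.4% of all promoters (median 6), while its second entry, at chr17:34125398-34125487, held ATTGG elsewhere in the 250 bases. Matches are a description of letters, and no match says only that these letters are not in the window. The annotated span of H2-DMa is 20444 bases long and overlaps Brd2. Which start its counted RNA came from was not tested, so neither entry need be that start.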

How the data were processed

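The authors deposited raw UMI count matrices of 6 PIPseq libraries; the submitters' processing notes name build GRCm39 and Seurat 4.3.0, and the aligner's strand setting is not given in the sources used here. Counts were summed per library or class after the study's cell filter, with Python 3.11.15, numpy 2.4.6, scipy 1.17.1, pandas 2.3.3 and scanpy 1.11.5, and plotted with matplotlib 3.10.9. Interval coverage was checked only on independent Poisson counts drawn around library means, which leave out the clumping of UMIs in single cells. Tumor cells were clustered with R 4.3.3, Seurat 5.3.0 and sctransform 0.4.2 (20 components, resolution 0.8). A cluster was called X-like when at least 3 of a lineage's markers were in at least 10% of its cells at 2 times the level of all other cells or, failing that, of cells named as another lineage; this rule was set after the files were seen. Scrublet marked 0 of 456 and 3 of 561 tumor cells as doublets; they were kept. Named genes are the 7 members, listed pathway genes with at least 20 UMIs (values given mainly for those past 2-fold), and the 10 genes most like the members. Ratios past 2-fold were counted among genes with at least 100 UMIs. Members and lists were chosen with earlier results of these data known. A gene of the B cell list is not reported here.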

Additional observations from a re-analysis of the deposited data

Results flagged for a closer look

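In the tumor, 2 members differed between the labels in opposite directions in different cell classes, each with an interval that leaves out 0. H2-Eb1 had a log2 ratio of Pdcd1 cKO over Pdcd1fl/fl of −0.45 in macrophage-like cells, against 2.15 in melanoma-like cells and 1.31 in T-like cells, the last being 0.86 (0.36 to 1.38) without 1 cell labelled Pdcd1 cKO. H2-DMa had −0.33 in macrophage-like cells and 2.27 in melanoma-like cells, but without 1 macrophage-like cell labelled Pdcd1 cKO the former was −0.05 (−0.37 to 0.27), an interval that holds 0. With 1 library per label, the difference between cell classes was not tested.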

How the results depend on the processing

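Each of 10 class II log2 ratios was recomputed under up to 8 other settings, 70 in all: 40 stayed within the interval of the reported value, 15 of them unchanged because the setting left the same cells, 30 moved outside it and 0 reversed a direction whose interval left out 0. Without Cd74 the ratio was 0.12 in thymus (interval holding 0), 0.97 in spleen, 0.97 in tumor, −0.073 in macrophage-like cells, 2.16 in melanoma-like cells, 7.45 for macrophage-like over T-like cells under Pdcd1fl/fl and 0.86 for thymus CD8 cells with over those without Ccr7 RNA under Pdcd1 cKO. Without cells holding a marker UMI of another lineage it was 0.70 in thymus, 1.24 in spleen and 0.56 in tumor. Stricter cell filters gave 2.55 in spleen, and median-of-ratios scaling 1.30 in tumor. Thinning to 1000 UMIs gave 0.24 in tumor and, with classes drawn again from the thinned counts, 1.12 for the thymus CD8 classes under Pdcd1fl/fl. That ratio stayed within its interval without Cd74 (0.30) and without cells holding a marker UMI of another lineage (0.55), but with these and with thinning its interval holds 0. At least 2 UMIs as the threshold gave 0.92 and 1.70 for those classes. Classes set by each cell's markers gave 0.44 in T-like, 0.19 in macrophage-like and 1.97 in melanoma-like cells, and 5.95 and 5.70 for macrophage-like over T-like. Totals without mitochondrial, ribosomal protein and Malat1 counts gave −0.050 in macrophage-like cells, and 6.83 and 6.08 for macrophage-like over T-like. Settings chosen after seeing the data gave, without cells of 10 or more class II UMIs, 0.23 in thymus, 1.49 in spleen and 0.65 in tumor; without the top cell or clusters 1 and 6, 0.45 and 0.16 in T-like cells; and without the cell richest in macrophage UMIs, 2.20 in melanoma-like cells. Ratios of single members without such cells were also chosen after seeing the data. With them intervals came to hold 0 for H2-Aa and H2-Eb1 in thymus and spleen, H2-DMb1 in tumor, where the ratio turned to −0.30, and H2-Aa and H2-DMa in macrophage-like cells. The cause was not tested beyond what each setting leaves out. Libraries were not paired by mouse, because no label ties mice of 1 genotype to mice of the other. A comparison of genotypes with tissue as the block would have been possible and was not made. Depth limits Ciita and the scarce members in thymus and spleen.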
